A study of Mus musculus with 4 samples.

Results

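Sterol and fatty acid synthesis was examined in macrophages through 34 genes, chosen by symbol from 21878 genes listed, because they encode the transcription factors of the SREBP family, the proteins that hold and release them, and the enzymes of the pathways under their control. Of these genes, 19 belong to the sterol branch (18 enzymes and the cholesterol carrier Stard4), 10 to the fatty acid branch, and 5 are regulators. The macrophages were grown from bone marrow of C57BL/6 mice and cocultured with MC38, a mouse colon cancer cell line, separated from it by a porous insert. Labels give an age of 8 weeks and 48 h of coculture for all samples, whereas the study's text gives an age range that starts there and a shorter coculture. Both groups were cocultured, so neither shows macrophages without tumor cells. The WT group held 2 libraries from wildtype mice, and the anti-Act1 group held 2 libraries from mice with a macrophage-specific knockdown of Act1, an adaptor protein of interleukin-17 signaling. These genotypes follow the labels and the study's figure legend. A passage of its methods instead names Apc^Min/+ mice, which develop adenomas, and their cross with anti-Act1 mice. The promoter that drives the knockdown is not given in the sources used here.

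SREBP proteins are made as precursors in the membrane of the endoplasmic reticulum. Scap carries them to the Golgi for cleavage when sterols are low, and Insig proteins hold the complex back when sterols are high. The released fragment of Srebf2 favors sterol genes and that of Srebf1 favors fatty acid genes. In macrophages this system supplies membrane lipid and responds to inflammatory signals and to sterol taken up from engulfed cells.

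Total counts were 64199075 and 75062945 in the WT libraries and 61926229 and 55435063 in the anti-Act1 libraries, and 12494 genes passed the filter on low counts. Traf3ip2, which encodes Act1, was at 6.98 and 7.54 CPM (counts scaled to the normalized library total) in WT and at 9.63 and 7.84 CPM in anti-Act1, with a log2 fold change of 0.27 (SE 0.12, adjusted p = 0.117 by edgeR). Leaving out anti-Act1 replicate 1 gave 0.11 (edgeR adjusted p = 0.723), and leaving out anti-Act1 replicate 2 gave 0.41 (edgeR adjusted p = 0.0343). The knocked-down gene's transcript thus showed no fall under the anti-Act1 label. The study measured Act1 separately in bone marrow-derived macrophages of anti-Act1 mice and reports a marked reduction. That measurement was not analysed here, and every direction below rests on the labels. The Y-linked gene Ddx3y was at 88.9 and 97.0 CPM in WT and at 0 in both anti-Act1 libraries, as were Uty and Kdm5d, and Eif2s3y had at most 0.0162 CPM there. Sex of the mice and genotype cannot be told apart in this comparison. All 8 macrophage markers were measured, with summed levels between 24570 and 26260 CPM, whereas 8 epithelial markers summed to 0.293 to 0.898 CPM, and Krt8, Krt18, Krt20 and Cldn3 were at 0 in every library.

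The question here was whether genes of lipid synthesis differed between anti-Act1 and WT macrophages in coculture, with the branches taken apart. All 34 genes passed the filter. The branches did not move as blocks: 5 genes were significantly higher in anti-Act1 macrophages, 7 were significantly lower, and 22 did not pass the threshold of an edgeR adjusted p of 0.05. The largest rises were in Sqle, the squalene epoxidase, at 1.73-fold, and in Scd2, a stearoyl-CoA desaturase, at 1.72-fold. The largest fall was in Elovl6, the elongase of saturated and monounsaturated fatty acids, at 2.53-fold. Over all genes tested, 10.9% were called higher and 9.76% were called lower. The median log2 fold change was -0.0272 over the 34 genes and -0.00457 over all genes tested. A lower level in bulk RNA can come from fewer cells of a type or from less RNA per cell, and these cannot be told apart here.

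**Figure D1:**
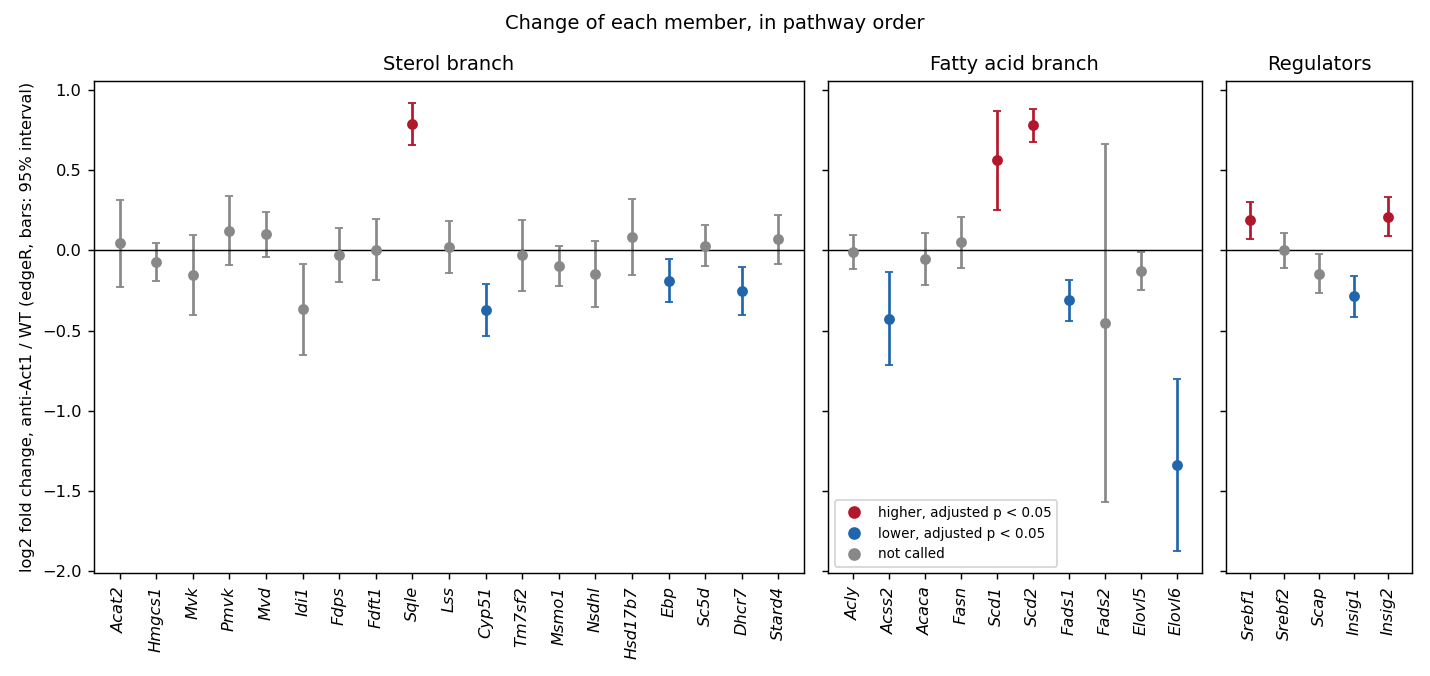
Log2 fold change (anti-Act1 over WT) of each of the 34 genes in pathway order, in panels for the sterol branch, the fatty acid branch and the regulators. Points are edgeR estimates from 2 libraries per group, bars are 95% intervals, and color marks genes past an adjusted p of 0.05; Sqle, Scd2 and Elovl6 stand farthest from 0 among these.

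The groups did not overlap in CPM in 21 genes, 8 with both anti-Act1 libraries higher and 13 with both lower. Across all genes tested, 28.4% had both anti-Act1 libraries above both WT libraries and 28.7% had both below. With 2 libraries against 2, the smallest p an exact permutation test can reach for 1 gene is p = 0.333, so the p-values given are two-sided and come from the edgeR model across all genes. They set the difference between the groups against the spread of replicates within a group, with information shared across genes. The study calls these replicates biological.

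Levels of different genes were compared as FPKM (fragments scaled to gene length and library size), which accounts for gene length. Scd2 was the most abundant of the 34 genes, with a mean FPKM of 76.4 in WT and 128.7 in anti-Act1. Acly, which makes cytosolic acetyl-CoA from citrate, followed at a mean FPKM of 40.7 in WT and 39.8 in anti-Act1, and its libraries overlapped. Elovl5, an elongase of polyunsaturated fatty acids, had a mean FPKM of 31.5 in WT and 28.3 in anti-Act1. Msmo1, a methylsterol oxidase, led the sterol branch at an FPKM of 27.1 and 28.8 in WT and 26.3 and 25.2 in anti-Act1. Of the regulators in WT, 4 lay close together, at a mean FPKM of 20.7 for Srebf1, 19.7 for Srebf2, 18.8 for Insig2 and 17.6 for Insig1, with Scap lower at 14.3. At the other end, Fads2, a desaturase of polyunsaturated fatty acids, had a mean FPKM of 0.239 in WT, and Elovl6 and Scd1 had 0.363 and 0.748.

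**Figure D2:**
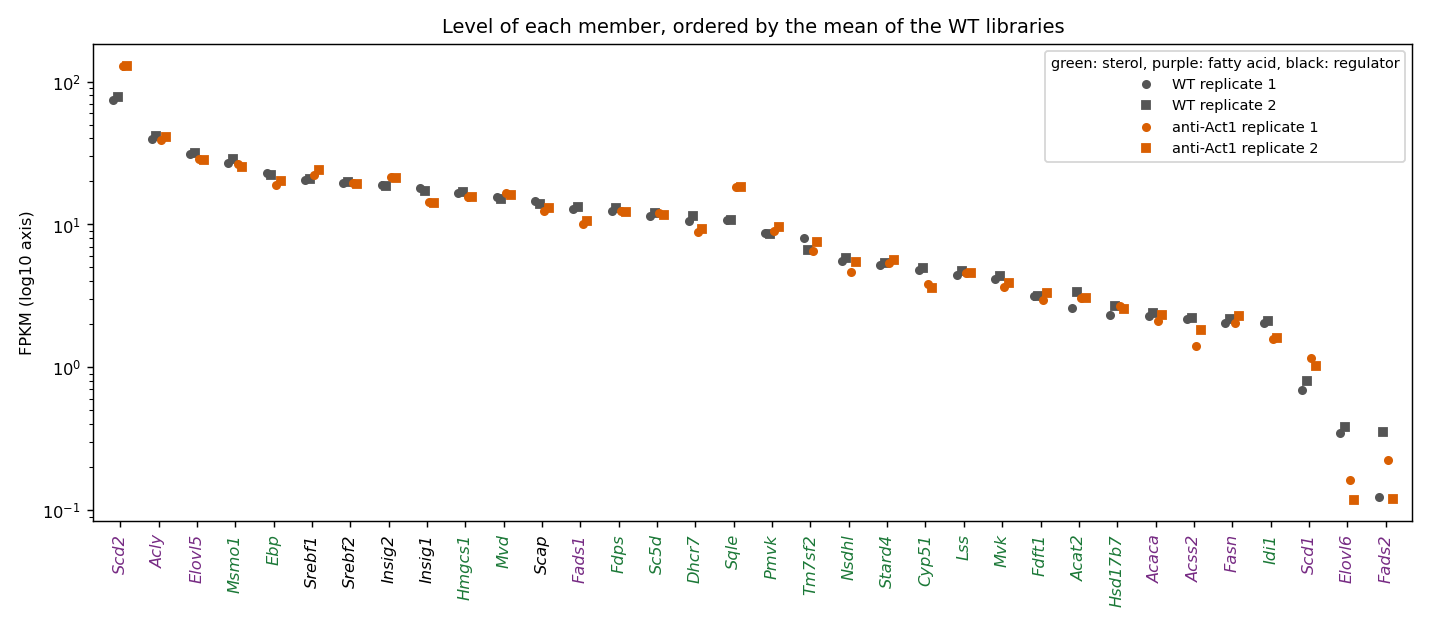
FPKM of the 34 genes in each of the 4 libraries on a log10 axis, ordered by the mean of the WT libraries, with gray points for WT and orange points for anti-Act1. Scd2 is the highest in every library and Sqle moves up relative to its neighbors in both anti-Act1 libraries, from an FPKM of 10.8 and 10.7 to 18.3 and 18.2.

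In the sterol branch, 1 of 19 genes was called higher, 3 were called lower and 15 were not called. The shares over all genes tested were 10.9% higher and 9.76% lower. The median log2 fold change of the branch was -0.0254. Summed over the branch, FPKM was 178.7 and 182.3 in WT and 176.7 and 179.0 in anti-Act1, so the totals of the groups overlapped while single steps moved in both directions.

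The first stretch of the branch builds farnesyl diphosphate from acetyl-CoA through mevalonate. EdgeR called 0 of its 7 genes, as did DESeq2, while 1, Idi1, had an unadjusted p under 0.05. With 10.9% of all genes tested called higher and 9.76% lower, few calls would be looked for among 7 genes. Acat2, the cytosolic thiolase, had a log2 fold change of 0.04, and Hmgcs1, the synthase of the next step, had -0.07 (95% interval -0.19 to 0.05). The kinases Mvk and Pmvk had -0.15 and 0.12, the decarboxylase Mvd had 0.10, and Fdps, the farnesyl diphosphate synthase, had -0.03. Between 24.7% and 54.1% of the 100-base transcript stretches of Acat2, Fdps and Idi1 also occur in other genes, so their counts may be shared. Idi1, the isopentenyl diphosphate isomerase, came nearest to the threshold. It was at 5.84 and 5.94 CPM in WT and at 4.50 and 4.63 CPM in anti-Act1, with both anti-Act1 libraries lower. Its log2 fold change was -0.37 (SE 0.14, adjusted p = 0.0549 by edgeR), and it was called in 6 of 15 alternative analyses.

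Squalene is then made, oxidized and closed into lanosterol by Fdft1, Sqle and Lss. Sqle was at 29.5 and 29.1 CPM in WT and at 50.5 and 50.7 CPM in anti-Act1. The replicates lay close together and both anti-Act1 libraries were far above WT. The log2 fold change was 0.79 (SE 0.064, adjusted p = 6.04e-14 by edgeR), and it was called in all 15 alternatives. As a share of the branch's summed FPKM, Sqle took 6.04% and 5.88% in WT and 10.4% and 10.1% in anti-Act1. The enzymes just before and after it did not show this difference, with log2 fold changes of 0.01 for the squalene synthase Fdft1 (95% interval -0.19 to 0.20) and 0.02 for the lanosterol synthase Lss (-0.14 to 0.18). Both of these intervals lie below the interval of Sqle, 0.66 to 0.92. Of the 100-base transcript stretches of Fdft1, 21.5% also occur in other genes, mostly Ctsb, so its counts may be shared.

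Of the 8 genes that turn lanosterol into cholesterol, 3 were significantly lower, against 9.76% of all genes tested. The other 5 were not called, and the median log2 fold change of the 8 was -0.121. Cyp51, the lanosterol demethylase that opens this stretch, was at 20.9 and 21.4 CPM in WT and at 16.7 and 16.0 CPM in anti-Act1. Both anti-Act1 libraries were lower, with a log2 fold change of -0.37 (SE 0.081, adjusted p = 0.000437 by edgeR). Ebp, the sterol isomerase, was at 40.0 and 38.4 CPM in WT and at 33.1 and 35.8 CPM in anti-Act1. The groups did not overlap, and the log2 fold change was -0.19 (SE 0.066, adjusted p = 0.0344 by edgeR). This call was lost in DESeq2 (adjusted p = 0.105), without WT replicate 1 (edgeR adjusted p = 0.140) and without anti-Act1 replicate 1 (-0.13, edgeR adjusted p = 0.402). Dhcr7, the reductase of the last step, was at 26.1 and 28.3 CPM in WT and at 22.3 and 23.4 CPM in anti-Act1. Again the groups did not overlap, with a log2 fold change of -0.25 (SE 0.074, adjusted p = 0.0096 by edgeR). The Dhcr7 call was lost without WT replicate 2 and without anti-Act1 replicate 1 (edgeR adjusted p = 0.136 in both).

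The other 5 enzymes of this stretch were not called. The sterol reductase Tm7sf2 had a log2 fold change of -0.03, Msmo1 had -0.09, the dehydrogenase Nsdhl had -0.15, the ketoreductase Hsd17b7 had 0.08 and the desaturase Sc5d had 0.03. Ebp and Nsdhl lie on the X chromosome. Stard4, which carries cholesterol between membranes, was also not called, with a log2 fold change of 0.07 (95% interval -0.08 to 0.22).

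In the fatty acid branch, 2 of 10 genes were called higher, 3 were called lower and 5 were not called, with a median log2 fold change of -0.0897. The shares over all genes tested were 10.9% higher and 9.76% lower. Summed over the branch, FPKM was 165.8 and 173.1 in WT and 213.8 and 215.1 in anti-Act1, higher in both. Without Scd2 the sums were 90.9 and 95.4 in WT and 84.6 and 87.0 in anti-Act1, so the direction of the branch total depended on this gene.

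Scd2 was at 406.1 and 419.3 CPM in WT and at 706.8 and 709.7 CPM in anti-Act1. Both anti-Act1 libraries were higher, and the log2 fold change was 0.78 (SE 0.050, adjusted p = 3.17e-17 by edgeR), which was called in all 15 alternatives. Scd2 and its paralogue Scd1 introduce the first double bond into saturated fatty acids. Scd1 was at 3.31 and 3.86 CPM in WT and at 5.62 and 4.98 CPM in anti-Act1, without overlap. Its log2 fold change was 0.56 (SE 0.15, adjusted p = 0.00521 by edgeR), but the call was lost without WT replicate 1 (0.46, edgeR adjusted p = 0.0625) and without anti-Act1 replicate 1 (0.47, edgeR adjusted p = 0.0808). Within the pair, Scd2 made up 99.1% and 99.0% of summed FPKM in WT and 99.1% and 99.2% in anti-Act1. Reads of near-identical genes can be split between them. Of the 100-base stretches of Scd1 transcripts, 2.63% also occur in another gene, mostly Scd3, and 0.896% of those of Scd2 occur in Scd1. In WT, Scd2 had 26236 and 31824 counts against 214 and 293 for Scd1. In anti-Act1 these were 43646 and 38751 against 347 and 272. A small share of Scd2 reads is thus large beside the counts of Scd1. Whether Scd2 reads added to the level or rise of Scd1 was not tested.

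The other desaturases and the elongases had lower or overlapping values. Elovl6 was at 2.04 and 2.24 CPM in WT and at 0.972 and 0.714 CPM in anti-Act1, from 132 and 170 counts against 60 and 39. Both anti-Act1 libraries were lower, with a log2 fold change of -1.34 (SE 0.27, adjusted p = 0.000124 by edgeR). Fads1, a desaturase of polyunsaturated fatty acids, was at 42.4 and 43.9 CPM in WT and at 33.8 and 35.8 CPM in anti-Act1. It was lower in both anti-Act1 libraries by a log2 fold change of -0.31 (SE 0.065, adjusted p = 0.000229 by edgeR), in all 15 alternatives. Its neighbor in the pathway, Fads2, had only 12 and 40 counts in WT and 21 and 10 in anti-Act1, and a difference was not detectable at this depth (95% interval of the log2 fold change -1.57 to 0.66). Elovl5 had a log2 fold change of -0.13 (SE 0.058, adjusted p = 0.1197 by edgeR), with both anti-Act1 libraries lower.

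The enzymes that supply and join the carbon units were mostly not called. Acly, the acetyl-CoA carboxylase Acaca and the fatty acid synthase Fasn had log2 fold changes of -0.01, -0.05 and 0.05, and the 95% interval of Fasn ran from -0.11 to 0.21. Acss2, which makes acetyl-CoA from acetate, was at 6.01 and 6.10 CPM in WT and at 3.94 and 5.11 CPM in anti-Act1. The anti-Act1 libraries were both lower but differed from each other, with a log2 fold change of -0.42 (SE 0.14, adjusted p = 0.0290 by edgeR). It was lost in DESeq2 (adjusted p = 0.140), without either WT replicate (edgeR adjusted p = 0.0568 and 0.0938) and without anti-Act1 replicate 1 (-0.24, edgeR adjusted p = 0.413).

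**Figure D3:**
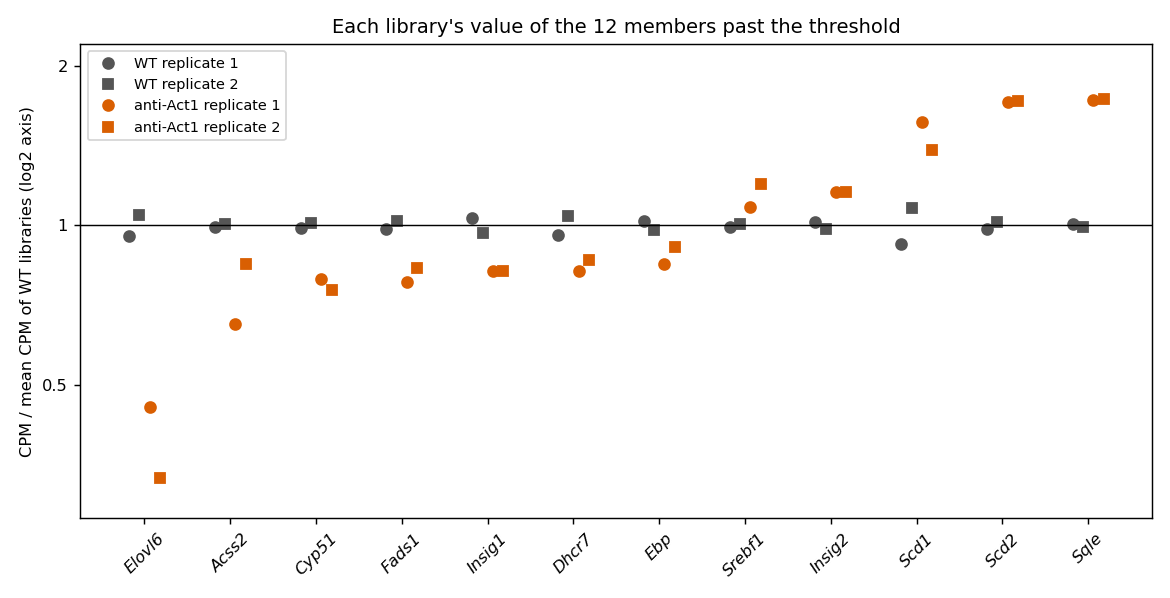
CPM of each library divided by the mean CPM of the WT libraries, on a log2 axis, for the 12 genes with an edgeR adjusted p under 0.05, with gray for WT and orange for anti-Act1. The replicates of Sqle and Scd2 lie close together, while those of Acss2, at 3.94 and 5.11 CPM in anti-Act1, lie apart.

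Among the 5 regulators, Srebf1 and Insig2 were called higher, Insig1 was called lower, and Srebf2 and Scap were not called. The shares over all genes tested were 10.9% higher and 9.76% lower. Srebf2 was at 96.4 and 97.1 CPM in WT and at 96.6 and 97.2 CPM in anti-Act1. These values overlapped, and the log2 fold change was 0.0022 (95% interval -0.11 to 0.11, edgeR adjusted p = 0.986). Srebf1 was at 87.2 and 88.4 CPM in WT and at 95.1 and 104.9 CPM in anti-Act1. Both anti-Act1 libraries were higher, by a log2 fold change of 0.19 (SE 0.056, adjusted p = 0.0119 by edgeR), which fell to 0.12 without anti-Act1 replicate 2 (edgeR adjusted p = 0.389). Scap was at 61.5 and 58.1 CPM in WT and at 52.3 and 56.0 CPM in anti-Act1, without overlap, and missed the threshold at a log2 fold change of -0.14 (SE 0.060, adjusted p = 0.0852 by edgeR).

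Insig1 and Insig2, which both retain Scap in the endoplasmic reticulum, differed in opposite directions. Insig1, itself a target of SREBP, was at 47.7 and 44.6 CPM in WT and at 37.9 and 37.8 CPM in anti-Act1. This gave a log2 fold change of -0.28 (SE 0.064, adjusted p = 0.000616 by edgeR), called in all 15 alternatives. Insig2 was at 47.9 and 46.6 CPM in WT and at 54.5 and 54.6 CPM in anti-Act1. This gave a log2 fold change of 0.21 (SE 0.060, adjusted p = 0.00901 by edgeR), and the groups of neither gene overlapped. The Insig2 call was lost without WT replicate 2 (edgeR adjusted p = 0.0551), or either anti-Act1 replicate (0.0771 without replicate 1 and 0.0827 without replicate 2). Insig1 contributed 48.8% and 47.9% of the pair's summed FPKM in WT and 40.0% and 39.9% in anti-Act1. Srebf1 contributed 51.1% and 51.3% of the FPKM of both Srebf genes in WT and 53.2% and 55.5% in anti-Act1.

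**Figure D4:**
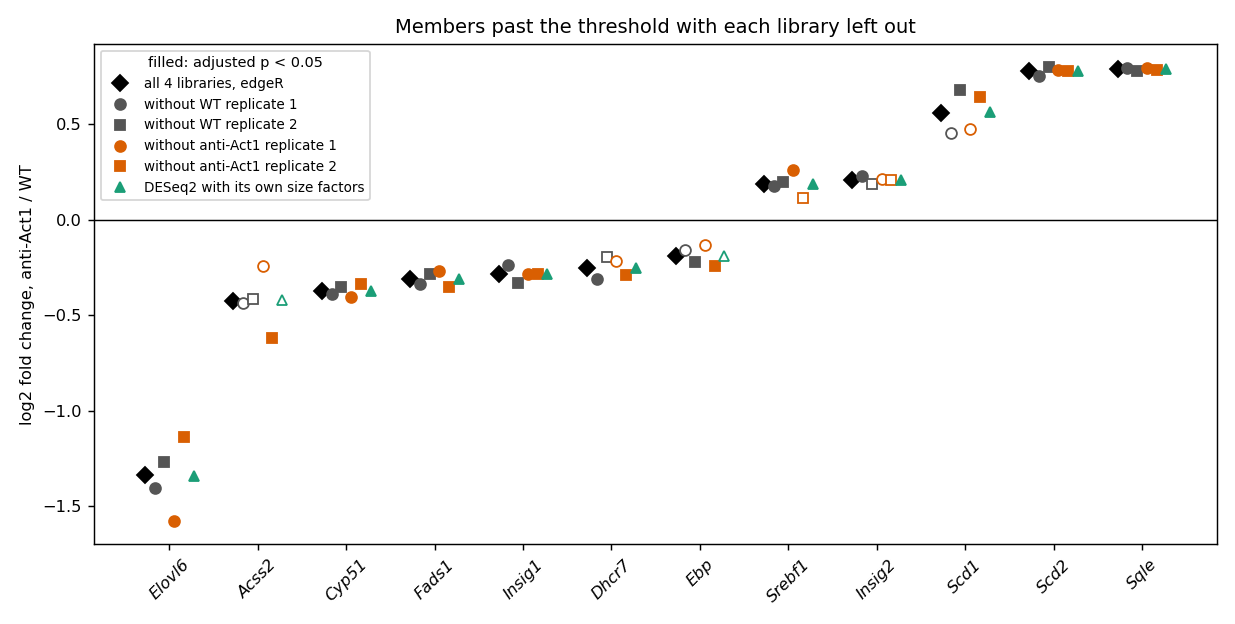
Log2 fold change (anti-Act1 over WT) of the 12 genes past an adjusted p of 0.05, with all 4 libraries, with each library left out in turn, and in DESeq2; filled symbols have an adjusted p under 0.05. All symbols keep their side of 0, and the open symbols lie at Acss2, Dhcr7, Ebp, Srebf1, Insig2 and Scd1.

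Promoter sequence was taken from RefSeq (GRCm38.p6) as windows from 250 bases before to 50 after each annotated start, and 27 of the 34 genes had an entry. Fdps, Fdft1, Sqle, Stard4, Scd1, Scd2 and Fads1 had none. Both strands were searched for the sterol regulatory element TCACNCCAC, to which SREBP binds, and for the boxes of its partners NF-Y (CCAAT) and Sp1 (GGGCGG). The element was found in 1 of the 27 genes, Hmgcs1, and in 1.44% of all genes with such windows. CCAAT was found in 22 of the 27 genes (81.5%) and in 41.1% of all genes, and GGGCGG in 22 of the 27 (81.5%) and in 38.2% of all. The E-box CANNTG was found in 19 of the 27 (70.4%) and in 75% of all. CCAAT occurred in 2 genes called higher, 5 called lower and 15 not called. Sqle, Scd1 and Scd2, called higher, and Fads1, called lower, had no window to search, so these counts do not compare the calls. A match describes these letters only.

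The 250 bases before the start are shown for Hmgcs1, the holder of the only element match, which was not called, for Insig1 and Insig2, which differed in opposite directions, and for Cyp51, which was lower. The last 3 were chosen after their values were seen, and for Insig2 the window with most CCAAT boxes is shown. Capitals mark TCACNCCAC, CCAAT and its reverse complement ATTGG. The windows are chr13:119690101-119690350 (plus strand) for Hmgcs1, chr5:28071162-28071411 (plus) for Insig1, chr1:121332590-121332839 (minus) for Insig2 and chr5:4104698-4104947 (minus) for Cyp51, and each is written from 5′ to 3′ on the strand of its gene.
Hmgcs1: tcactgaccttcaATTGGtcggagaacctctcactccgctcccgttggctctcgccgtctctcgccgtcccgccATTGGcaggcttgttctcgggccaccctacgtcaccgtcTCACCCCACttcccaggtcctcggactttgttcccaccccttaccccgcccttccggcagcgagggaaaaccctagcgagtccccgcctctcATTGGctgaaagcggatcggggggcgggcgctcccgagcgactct
Insig1: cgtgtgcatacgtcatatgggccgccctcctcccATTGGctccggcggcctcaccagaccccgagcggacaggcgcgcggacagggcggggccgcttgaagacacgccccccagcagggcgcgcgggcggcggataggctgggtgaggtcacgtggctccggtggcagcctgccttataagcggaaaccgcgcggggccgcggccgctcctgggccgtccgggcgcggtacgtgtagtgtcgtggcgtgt
Insig2: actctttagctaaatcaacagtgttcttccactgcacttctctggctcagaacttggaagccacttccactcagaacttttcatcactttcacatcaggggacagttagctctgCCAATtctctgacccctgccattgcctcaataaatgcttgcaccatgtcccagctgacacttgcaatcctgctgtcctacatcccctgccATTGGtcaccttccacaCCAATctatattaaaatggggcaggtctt
Cyp51: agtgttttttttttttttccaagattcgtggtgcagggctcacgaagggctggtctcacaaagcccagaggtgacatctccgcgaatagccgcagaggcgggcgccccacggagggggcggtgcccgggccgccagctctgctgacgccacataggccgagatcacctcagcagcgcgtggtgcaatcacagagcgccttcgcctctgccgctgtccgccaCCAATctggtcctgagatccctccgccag
The element of Hmgcs1 begins 137 bases before the start, among 3 CCAAT boxes. Insig2 also holds 3 boxes here, and Insig1 and Cyp51 hold 1 each.

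Another 41 genes of the same pathways, outside the 34, were all tested. Of these, 8 were called higher, 3 lower and 30 not, with a median log2 fold change of 0.03. For comparison, edgeR called 10.9% of all genes tested higher and 9.76% lower. Acacb, the carboxylase whose malonyl-CoA restrains fatty acid oxidation, was at 0.557 and 0.540 CPM in WT and at 2.25 and 2.27 CPM in anti-Act1, with a log2 fold change of 2.04 (SE 0.29, adjusted p = 2.69e-07 by edgeR). Acaca, its paralogue, was not called. Acsl1, an acyl-CoA synthetase, was at 46.1 and 51.3 CPM in WT and at 64.1 and 68.8 CPM in anti-Act1, with a log2 fold change of 0.45 (SE 0.062, adjusted p = 1.68e-07 by edgeR). Smaller rises were found in the acyltransferase Gpam (0.24), the citrate carrier Slc25a1 (0.22), the acyl-CoA synthetase Acsl4 (0.21), the methyltransferase Icmt (0.19) and the electron donors Por (0.16) and Cyb5r3 (0.15).

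The 3 genes of the wider list that were lower were Lbr, Erlin1 and Mbtps1. Lbr, a nuclear envelope protein with the same sterol reductase activity as Tm7sf2, was at 28.01 and 29.82 CPM in WT and at 21.1 CPM in both anti-Act1 libraries. Its log2 fold change was -0.46 (SE 0.073, adjusted p = 3.60e-06 by edgeR), and both anti-Act1 libraries were lower. Erlin1, which takes part in sterol-controlled protein turnover, had -0.26, and Mbtps1, the first protease that cleaves SREBP in the Golgi, had -0.17. Mbtps2, the second protease, was not called (0.01). The calls of Acacb, Acsl1 and Lbr held in every alternative in which they were tested. The calls of the other 8 genes held in 6 to 13 of the 15 alternatives, each was lost when at least 1 library was left out, and that of Cyb5r3 was also lost with the replicate block. The log2 fold change of Erlin1 was -0.145 without WT replicate 2, that of Acsl4 was 0.13 without WT replicate 1, and those of Por and Slc25a1 were 0.094 and 0.15 without anti-Act1 replicate 2.

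Other values moved alongside. Of 8 macrophage markers, Itgam and Mertk were lower (log2 fold changes of -0.31 and -0.40) and Cd14 was higher (0.16). Of 15 cell cycle genes tested, Top2a, Mcm3 and Mcm5 were lower (-0.71, -0.29 and -0.55) and the other 12 were not called. Their median log2 fold change was -0.23. Beside these counts, 10.9% of all genes tested were called higher and 9.76% lower. Of 5 adipocyte markers, 4 were at 0 in every library. Summed CPM across libraries ran from 1.33 to 2.19 for 7 fibroblast markers, from 6.58 to 7.43 for 7 neutrophil markers, from 25.2 to 31.0 for 4 T cell markers, from 2.91 to 3.99 for 4 B cell markers and from 1.80 to 2.96 for 4 dendritic cell markers. Within the neutrophil list S100a8 was higher (0.66, adjusted p = 0.000564 by edgeR), and S100a9 and Ltf were lower (-1.42 and -1.58, adjusted p = 0.00065 and 0.0115). Nearly all of the T cell sum was Cd4, which macrophages can also express and which was higher (0.21, adjusted p = 0.0358 by edgeR), while Cd3d, Cd3e and Cd8a had at most 0.0929 CPM in any library. The part of cell state and cell division in the lipid genes' differences was not tested.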

How the data were processed

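The analysis used 4 RNA sequencing libraries of macrophages in coculture with MC38. The authors removed low-quality reads, aligned read pairs with TopHat and deposited whole read counts per gene without normalization. They also deposited FPKM, which equal those counts divided by gene length and library total. Submitters' processing notes name Bowtie 0.12.2, HTSeq 0.6.1 and the builds mm8 and mm10. Which build and strand setting were used for counting is not given in the sources used here, so overlapping and near-identical genes are uncertain: the share of 100-base transcript stretches (GENCODE M21) found in other genes reached 54.1% for Fdps, 39.8% for Acaca, 30.6% for Acat2, 24.7% for Idi1 and 21.5% for Fdft1.

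Counts were tested with edgeR 4.0.16 (R 4.3.3) by the two-sided quasi-likelihood F test after TMM normalization and filterByExpr, with condition as the only term and Benjamini-Hochberg adjustment over 12494 genes. CPM are counts scaled to the normalized library total. Standard errors and 95% intervals come from this model. A count of 0 allows up to 3 counts, or 0.0395 to 0.0549 CPM, and this covers counting error only. The WT replicates differed by more than sampling noise (chi-square of 10.4 per degree of freedom), as did the anti-Act1 replicates (7.22).

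The 34 genes and all lists were chosen with earlier results of these data known. All 34 are named, with each library's values for those called and for the regulators; of the wider list those called may be named, and Mbtps2, Idi1 and the shown promoters were chosen after values were seen. Erg28 was found under the name 0610007P14Rik. Alternatives were DESeq2 1.42.0 (the authors' tool), its size factors in edgeR, library totals alone for scaling, all genes unfiltered, a minimum of 10 counts per library, a replicate block, a gene-length trend removed (loess span 0.3), limma 3.58.1 on log2(FPKM + 1) and log2(FPKM + 0.1) (FPKM of at least 1 in 2 libraries) and on log2(FPKM + 1) unfiltered, and leaving out 1 library at a time. Counts thinned to the smallest total were added after seeing the data. Of the tests, the main edgeR fit, DESeq2 and filtered limma on log2(FPKM + 1) were run on simulated data.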

Additional observations from a re-analysis of the deposited data

How the results depend on the processing

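The 12 called genes kept their sign in every one of the 15 alternatives that tested them (Elovl6 was tested in 13), but counts of calls moved. In limma on log2(FPKM + 1), on log2(FPKM + 0.1) and on log2(FPKM + 1) without a filter, the genes called higher among the 34 went from 5 to 3, 3 and 2, in the fatty acid branch from 2 to 1 in each, and among the regulators from 2 to 1, 1 and 0. In limma without a filter, the genes called lower went from 7 to 3 among the 34 and from 3 to 0 in the sterol branch. The calls of Scd1 and Srebf1 were lost in each of these limma fits. Calls also fell over all genes tested, where those higher went from 1366 to 913, 908 and 582 in the same fits. Those lower went from 1220 to 509 in limma without a filter. Genes tested were 12494 in the main fit and 10168, 10168 and 15491 in these. Without composition normalization, 2 regulators in place of 1 were called lower, and over all genes tested 1411 in place of 1220. Removing the gene-length trend moved the median log2 fold change of the sterol branch from -0.0254 to -0.081. The cause of these shifts was not tested.

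With each library left out in turn, the sterol branch had 1 to 3 genes called lower, the fatty acid branch 1 to 2 higher, and the regulators 0 to 2 higher and 1 to 2 lower. Among all 34 genes, 3 to 4 were then called higher and 4 to 7 lower. The sterol median ranged from -0.071 to 0.020, above 0 without anti-Act1 replicate 1, and the fatty acid median from -0.11 to 0.0087, above 0 without WT replicate 2. Over all genes tested, calls both higher and lower also fell in each of these fits, least without WT replicate 1. A drop in calls among the 34 genes is therefore not particular to them. Such a fit leaves 1 library in a group, assumed to vary like the other group.

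With the replicate number as a block, 5 genes were called higher and 7 lower, as without it. Over all genes tested, those higher went from 1366 to 1293 and those lower from 1220 to 1113. Deviations of same-numbered libraries correlated at -0.033, so the numbers were not shown to pair the libraries. Depth limits Fads2 and Elovl6 most among the 34 genes.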
